A study of Mus musculus with 4 samples.

Results

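Lipoprotein lipase (Lpl), its secreted inhibitor Angptl4, its capillary anchor Gpihbp1 and the very low density lipoprotein receptor (Vldlr) make up the machinery with which muscle takes fatty acids from triglyceride-rich lipoproteins in blood. These 4 genes were chosen by name, with earlier results of these data known. All probe sets annotated with 1 of their symbols were taken. Gpihbp1 had no such probe set and is not analysed here. The other 3, of 12393 genes with a probe set of a single symbol, had 8 probe sets among the 22690 of the array: 2 for Lpl, 2 for Angptl4 and 4 for Vldlr.

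The data are expression arrays of total RNA from mouse gastrocnemius, the large calf muscle. The MCK-PPARa group, with 2 arrays, came from transgenic mice that overexpress the nuclear receptor PPARα specifically in muscle. MCK names muscle creatine kinase, whose promoter is active in muscle fibres and little elsewhere. The NTG group, also with 2 arrays, came from non-transgenic littermates. The strain, age, sex, feeding state and number of transgenic lines are not stated in the labels. The labels number the arrays of a group 1 and 2 and do not link them to animals. The p-values below therefore measure the spread between these arrays, and that spread may be technical.

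Lipoprotein lipase cuts triglyceride in chylomicrons and very low density lipoproteins at the capillary wall, and the fatty acids it frees enter the tissue. Muscle fibres and adipocytes make the enzyme, Gpihbp1 carries it across the endothelial cell and holds it in the capillary, and Angptl4 inactivates it. Vldlr binds lipoproteins rich in apolipoprotein E and is abundant in heart, muscle and fat. Lpl and Angptl4 are known target genes of the PPAR family, and the comparison asks how these transcripts stand when PPARα is raised in the fibre itself.

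The values are MAS5 signals, which are linear intensities that the authors scaled to a common level on each array. The 2% trimmed mean was 1500.6 to 1500.7 on every array, and the median signal was 581.5 to 700.3. A change below is the mean of log2(signal + 64.2) in MCK-PPARa less that in NTG muscle, with its standard error (SE, n = 2 per group) from limma. The offset of 64.2 is 10% of the median of all values, and it makes the change of a dim probe set look smaller. A gene was called at an adjusted p of 0.05 by limma with Benjamini-Hochberg adjustment over 8402 genes, each represented by its brightest probe set. The background was 0.0476% of genes called higher and 0.0119% called lower. The smallest two-sided p that an exact permutation test allows here is 0.333, so that test cannot reach 0.05 for any gene, and limma, which shares the spread across genes, was used.

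The overexpressed gene was checked first. Ppara had signals of 633.4 and 2674.1 in the NTG arrays and of 7969.3 and 15226.2 in the MCK-PPARa arrays. Both transgenic arrays lay above both control arrays, and NTG replicate 2 was the higher of the controls. The change was 3.003 ± 0.62 (SE), with a limma adjusted p of 0.21 and of 0.00085 with the replicate number as a block. The muscle fibre markers Ckm, Acta1 and Myh4 had signals from 113626 to 233214.5 on the 4 arrays, so fibre transcripts of the labelled tissue were abundant in every sample.

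The arrays also differed by replicate number. The control probe set for the 5′ end of 18S ribosomal RNA read 2201.5 in NTG replicate 1 and 2313.1 in MCK-PPARa replicate 1, against 28.9 and 44.7 in the replicate 2 arrays of the same groups. The labels do not say what the replicate number marks. The members were therefore also compared within each replicate number and with the number as a block in the fit. This block assumes that arrays with the same number belong together. It also leaves fewer residual degrees of freedom, so its p-values rest more on the spread shared across genes. With that block 2.51% of genes passed, 1.45% higher and 1.06% lower.

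Angptl4 was the member with the largest difference. Its brighter probe set (1417130_s_at) had signals of 138.5 and 169.4 in NTG replicates 1 and 2 and of 2372.6 and 1506.4 in MCK-PPARa replicates 1 and 2. The groups did not overlap, and the control arrays were close to each other and dim. The change was 3.17 ± 0.45 (SE), or 8.99-fold on the offset scale, with a 95% interval of 2.12 to 4.22. The limma adjusted p was 0.082, so Angptl4 missed the threshold. It was 11th of 8402 genes by p, and 0.0357% of genes had a larger change. That rank is among genes past a filter on mean signal over all arrays (455.3), which Angptl4 passed only through the MCK-PPARa arrays. With no filter the limma adjusted p of Angptl4 was 0.081. The difference was 3.59 for replicate 1 and 2.75 for replicate 2, and with the replicate block it passed (limma adjusted p = 0.0043). The size rests on dim control signals, and it was 3.57 with an offset of 1% of the median and 2.23 with 50%.

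The second Angptl4 probe set (1453410_at) was much dimmer. It read 40.5 and 59.3 in the NTG arrays and 86.5 and 457.6 in the MCK-PPARa arrays. It was higher on both transgenic arrays, but MCK-PPARa replicate 2 carried most of the difference. Tested over all 22626 probe sets that are not controls, with no filter, the change was 1.30 ± 0.64 (SE), with a limma adjusted p of 0.97 and 0.40 with the replicate block. In that fit 0.0221% of probe sets were called higher and 0.00884% lower, and with the block 0.628% higher and 0.499% lower. Only 17.7% of these probe sets were dimmer than 1453410_at on average, and whether it was above background is not known, since no detection calls were used. Both Angptl4 probe sets were thus higher in MCK-PPARa muscle, with a difference well beyond the replicate gap in the brighter one and not in the dimmer one.

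**Figure D1:**
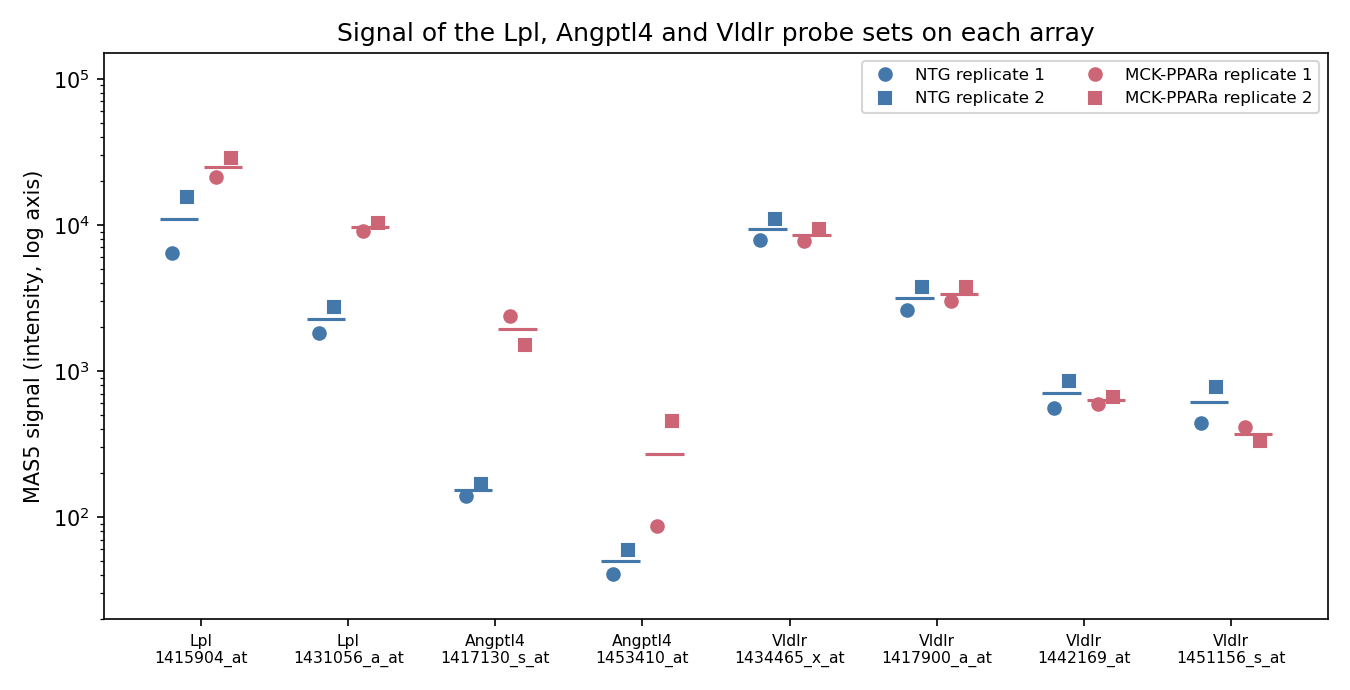
MAS5 signal (intensity, log axis) of the 8 probe sets of Lpl, Angptl4 and Vldlr on each of the 4 arrays, with circles for replicate 1, squares for replicate 2 and horizontal bars for the mean of the 2 arrays of a group. The Lpl and Angptl4 probe sets were higher on both MCK-PPARa arrays than on both NTG arrays, while 3 of the 4 Vldlr probe sets overlapped between groups.

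Lpl, the lipase itself, was higher in MCK-PPARa muscle by both of its probe sets. The brighter one (1415904_at) had signals of 6454.6 and 15612.1 in the NTG arrays and of 21366.2 and 28477.1 in the MCK-PPARa arrays. The groups did not overlap, but the 2 control arrays differed by 1.27 on the log2 scale, about as much as the groups did. The change was 1.29 ± 0.44 (SE), or 2.45-fold, with a 95% interval of 0.27 to 2.31, and it missed the threshold (limma adjusted p = 0.65). Of all genes tested, 1.44% had a larger change. It was 1.72 for replicate 1 and 0.86 for replicate 2, and Lpl passed with the replicate block (limma adjusted p = 0.020).

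The size of this Lpl value depends on which control array is used. Without NTG replicate 1 the change was 0.66, and without NTG replicate 2 it was 1.92. In these fits the lone control array is assumed to vary like the other group, so only the sizes of the change are given. Replicate 2 had the higher signal of this Lpl probe set and of Ppara in both groups. A link between these signals was not tested.

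The other Lpl probe set (1431056_a_at) had tighter groups. It read 1804.3 and 2746.9 in the NTG arrays and 9121.7 and 10327.8 in the MCK-PPARa arrays. The groups were far apart, with a gap of 0.59 between the controls and 0.18 between the transgenic arrays on the log2 scale. The change was 2.09 ± 0.31 (SE), or 4.26-fold, with a 95% interval of 1.39 to 2.79 and a limma adjusted p of 0.092 over all probe sets. It was 2.30 for replicate 1 and 1.89 for replicate 2, with a limma adjusted p of 0.00091 under the replicate block. The probe sets of Lpl therefore had the same direction but not the same size. The difference between them was not tested. In the array maker's naming, an a before the final at marks probes shared by several transcripts of 1 gene, an s marks probes that can be shared by transcripts of different genes, and an x marks probes that may bind other sequences.

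Vldlr, the receptor, showed no difference larger than the spread between replicates in any of its 4 probe sets. The brightest (1434465_x_at) had signals of 7886.3 and 10902.7 in the NTG arrays and of 7778.6 and 9368.6 in the MCK-PPARa arrays. The groups overlapped, and in both groups the replicate 2 array was the higher one. The change was -0.12 ± 0.31 (SE), with a limma adjusted p of 0.99 and a 95% interval of -0.85 to 0.61. Rises above 0.61 and falls beyond -0.85, and so a rise of the size seen in Lpl, lie outside that interval, while smaller changes do not.

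The next brightest Vldlr probe set (1417900_a_at) read 2596 and 3745.9 in the NTG arrays and 3025.7 and 3740.1 in the MCK-PPARa arrays, a change of 0.11 ± 0.31 (SE). The third (1442169_at) read 554.1 and 858.8 against 595 and 663.8, a change of -0.13 ± 0.46 (SE). The dimmest (1451156_s_at) read 442.1 and 780.6 in the NTG arrays and 412.6 and 332.7 in the MCK-PPARa arrays. Only this one had groups that did not overlap, with both transgenic arrays lower by -0.59 ± 0.53 (SE), and its limma adjusted p was 0.98. Its difference was -0.087 for replicate 1 and -1.09 for replicate 2. Groups did not overlap in 33.6% of all probe sets, 20.8% with the transgenic arrays higher and 12.8% with them lower. Among the 8 member probe sets 5 did not overlap, the 4 of Lpl and Angptl4 higher and this one lower.

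**Figure D2:**
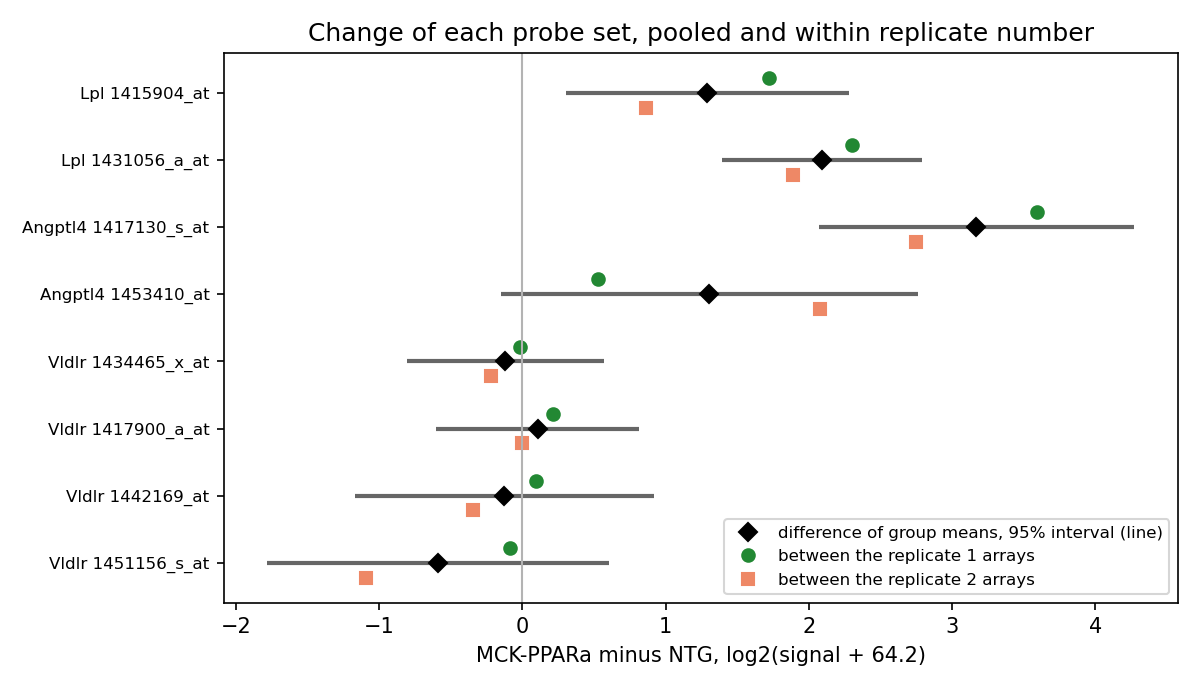
Change of each member probe set, MCK-PPARa minus NTG, on the log2(signal + 64.2) scale, with a diamond and a line for the difference of group means and its 95% interval from limma over all probe sets, a circle for the replicate 1 arrays and a square for the replicate 2 arrays. The intervals of both Lpl probe sets and of Angptl4 1417130_s_at lie above 0, and those of the 4 Vldlr probe sets include 0.

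The other genes of lipoprotein lipase action were read from a list of 54 ordered by role. Of these 48 had a probe set with a single symbol and 41 passed the filter on dim probe sets. None passed the limma test in either direction. At an unadjusted p under 0.05 there were 0 higher and 2 lower, against 3.32% of all genes tested higher and 2.51% lower. The median change of the 41 was 0.13, with 26 above 0 and 15 below, and that of all 8402 genes was 0.055. The 3 members had a median of 1.29, which is the Lpl value itself, between Vldlr (-0.12) and Angptl4 (3.17).

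Genes for maturation and cleavage of the enzyme did not pass in either direction (8 tested, median 0.079). Lmf1, the endoplasmic reticulum factor that lets the lipase fold, read 1068.7 and 490.9 in the NTG arrays and 1301.7 and 682.2 in the MCK-PPARa arrays, a change of 0.35 ± 0.49 (SE). The smallest p in this role were those of the chaperone Hspa5 (-0.45 ± 0.35) and the sorting receptor Sort1 (0.36 ± 0.30). Each of these changes was of the order of its SE.

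Secreted regulators and apolipoproteins did not pass either (6 tested, median 0.080). Apoc4 (0.68 ± 0.60) and Apoe (-0.56 ± 0.69), the ligand that lipoprotein receptors recognise, had the smallest p. Apoe read 3075.9 and 844.4 in the NTG arrays and 1984.1 and 580.4 in the MCK-PPARa arrays, so it followed the replicate number more than the genotype. Apoc2, the activator that the lipase needs, was below the filter, at 504.6 and 47.7 in the NTG arrays and 372.4 and 98.5 in the MCK-PPARa arrays. Angptl8, which acts on lipoprotein lipase together with other members of the Angptl family, was also below the filter. It read 415.9 and 758.2 in the NTG arrays and 170.6 and 227 in the MCK-PPARa arrays, lower on both transgenic arrays. In the fit without a filter the change of Angptl8 was -1.27 ± 0.53 (SE). It did not pass, with a limma adjusted p of 0.84 and of 0.32 with the replicate block.

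The related lipases were the lysosomal Lipa (0.33 ± 0.31) and the endothelial Lipg (0.56 ± 0.55), and neither passed. Of 6 lipoprotein receptors of the LDL receptor family and other types tested, none passed (median 0.12). Lrp6, better known as a Wnt co-receptor, had the smallest p. It read 1523.5 and 1883.2 in the NTG arrays and 697.3 and 1060.4 in the MCK-PPARa arrays, a change of -0.93 ± 0.34 (SE) with a limma adjusted p of 0.72. Next was the sorting receptor Sorl1 (-0.60 ± 0.30). Lrp8, the receptor closest to Vldlr in structure, was below the filter, at 253.9 and 271.1 in the NTG arrays and 336.8 and 511 in the MCK-PPARa arrays.

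Receptor ligands, adaptors and degradation factors did not pass (6 tested, median 0.10). Snx17, an adaptor that recycles receptors of this family (-0.57 ± 0.32), and Dab1, which binds their tails in Reelin signalling (0.44 ± 0.34), had the smallest p. Mylip, the ubiquitin ligase that sends Vldlr to degradation, read 3120 and 2975.8 in the NTG arrays and 5533 and 2779.9 in the MCK-PPARa arrays, a change of 0.36 ± 0.38 (SE).

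Heparan sulfate proteoglycans, which bind the lipase on cell surfaces, and their enzymes did not pass as single genes in the unblocked test (13 tested, median 0.090). The glypican Gpc1 had the smallest p of the whole list. It read 15209 and 13887.3 in the NTG arrays and 8443 and 3531.5 in the MCK-PPARa arrays, with both transgenic arrays below both controls and MCK-PPARa replicate 2 the lower. The change was -1.40 ± 0.42 (SE) with a limma adjusted p of 0.50. It was -0.84 for replicate 1 and -1.96 for replicate 2, and Gpc1 passed with the replicate block (limma adjusted p = 0.025). Of the 41 list genes tested it was the only one that did, and 2.51% of all genes passed with that block. The syndecan Sdc4 was next (-0.61 ± 0.34).

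**Figure D3:**
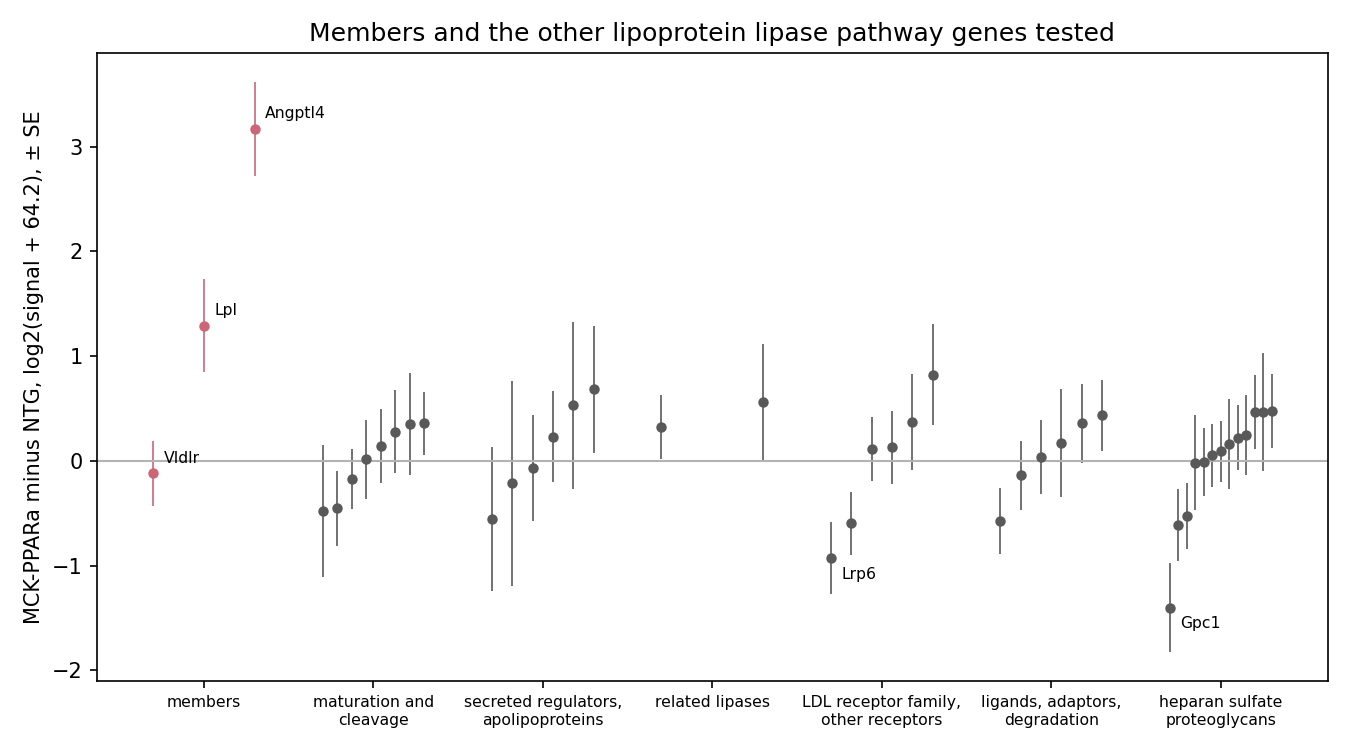
Change (MCK-PPARa minus NTG, log2 scale, with SE as error bars) of the 3 members tested and of the 41 other pathway genes tested, arranged by role, with names for members and for genes with an unadjusted limma p under 0.05. Angptl4 (3.17) and Lpl (1.29) lie above all 41 other genes, whose highest value is that of the receptor gene Lrp4 (0.82), and Gpc1 (-1.40) and Lrp6 (-0.93) lie lowest.

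Lpl and Angptl4 are also made by adipocytes, and Lpl by macrophages, so markers of these cells were read on the same arrays. In bulk tissue, more cells of a type and more RNA per cell cannot be told apart. Of 10 adipocyte markers 8 were on the array, and their summed signal was 9263 and 8543.2 in the NTG arrays and 31359.6 and 19827.7 in the MCK-PPARa arrays. Fabp4, which is also expressed in endothelial cells, made up much of this. The sum of the other 7 was 5077.1 and 4722.7 in the NTG arrays and 9575.5 and 8988.8 in the MCK-PPARa arrays. The 5 adipocyte markers past the filter had a median change of 0.97 and all 5 were above 0, with none past the limma test and 2 past it with the replicate block. The adipokine Adipoq changed from 1072.4 and 1503.8 to 3477.2 and 3179.7. Leptin (Lep) was dim in both groups, from 76.9 to 124.5, as was Pparg, from 36.8 to 55.7. The part of adipocytes in the Lpl and Angptl4 differences was not tested.

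The macrophage list (8 markers on the array) summed to 10411.7 and 11239.8 in the NTG arrays and to 13071.9 and 13273 in the MCK-PPARa arrays, with a median change of 0.20 over 7 tested. Csf1r was its brightest marker and Itgam its dimmest. The endothelial list (12 markers), which stands for the cells that would carry Gpihbp1, summed to 21319 and 23559.6 in the NTG arrays and to 25889.3 and 27052.2 in the MCK-PPARa arrays, with a median change of 0.12. The dimmest endothelial marker was Vwf and the brightest Cdh5. In both lists the transgenic sums were above the control sums, none of the markers passed the limma test, and their part in the member results was not tested. The skeletal muscle list (10 markers) summed to 1183230 and 1096190 in the NTG arrays and to 1348550 and 1147950 in the MCK-PPARa arrays. Ckm was the brightest of these and the slow myosin Myh7 the dimmest. Myh7 went from 12696.3 and 6605.9 to 2068.4 and 836.2, and it was the only marker of this list past the limma test with the replicate block.

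**Figure D4:**
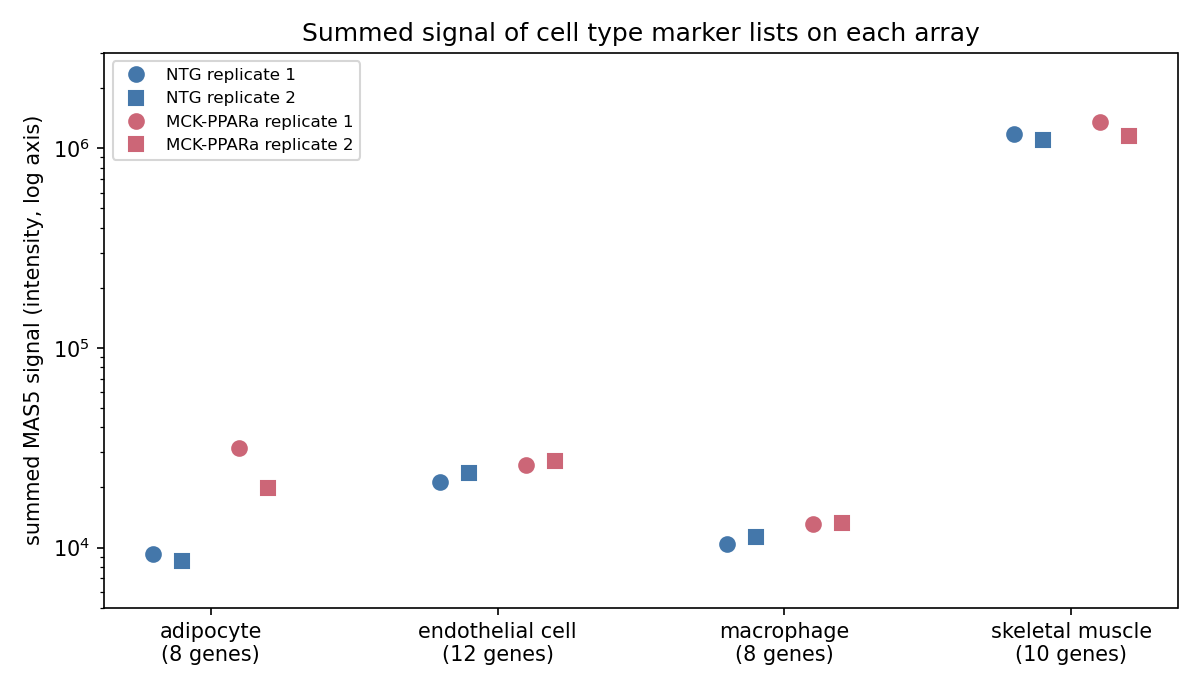
Summed MAS5 signal (intensity, log axis) of the adipocyte, endothelial, macrophage and skeletal muscle marker lists on each array, with circles for replicate 1 and squares for replicate 2. The adipocyte sum was 8543.2 to 9263 on the NTG arrays and 19827.7 to 31359.6 on the MCK-PPARa arrays, a wider gap than in the other lists.

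The genes with the most similar profiles were found by the Euclidean distance between centred log2 values over the 4 arrays, among 8401 other genes. For Angptl4 they were the acetylcholine receptor subunit Chrna2 (distance 0.53), the amidoxime reductase Mtarc1 (0.54) and the epoxide hydrolase Ephx2 (0.72). Chrna2 read 79.6 and 88 in the NTG arrays and 1594.6 and 1561.9 in the MCK-PPARa arrays, and Ephx2 read 2333.1 and 1635.3 against 18547.4 and 9357.3. Of the 3, Mtarc1 rose at the threshold (3.04 ± 0.30, limma adjusted p = 0.019). For Lpl they were 5031439G07Rik (0.20), Dclk1 (0.28) and Zfp33b (0.30). As in Lpl, the second NTG array was above the first in each of them, for example 963.2 and 2548 in 5031439G07Rik against 3893.4 and 4323.3 in MCK-PPARa muscle. For Vldlr they were Gatad2b (0.031), Golga5 (0.034) and Sp1 (0.042), with changes from -0.13 to -0.10. With 4 arrays these likenesses are descriptions only.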

How the data were processed

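The 2 NTG and 2 MCK-PPARa samples were measured on 1 array each, and this number limits the precision. The authors deposited 1 table of linear signal intensity values, made with MAS5 per the submitters' processing notes. Its version and settings are not stated there, and no detection calls were used. With equal trimmed means, no further normalization was done. Gene symbols came from the platform annotation. Of 22626 probe sets other than 64 controls, 20380 had 1 symbol, 691 had several and 1555 had none here, and those without a single symbol entered only the fit over probe sets. Values were transformed as log2(signal + 64.2). Probe sets below the 40th percentile of mean signal (455.3) were left out, the brightest stood for each gene, and 8402 genes were tested with limma 3.58.1 in R 4.3.3 (lmFit, eBayes with a variance trend, 7.78 degrees of freedom in all, 2 of them residual). A second fit took every probe set with no filter. The fit was tested on simulated data, with 200 genes changed per run and independent noise on each array, without a replicate effect. It called 11.5% of simulated log2 changes of 1, 76.2% of 2, 91% of 3 and 90.7% of 4, and 6.21% of calls were false. These shares need not hold for the real arrays, which differed by replicate number. A gene that did not pass may therefore still have changed.

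The groups share replicate numbers 1 and 2. Across genes, which are no independent replicates, the gap between replicates in NTG and that in MCK-PPARa muscle had r = 0.47, and the 18S control probe sets separated the numbers, so a replicate block was an alternative. Other alternatives were the offset, the filter, quantile normalization, median centring, no variance trend, the median of a gene's probe sets past the filter and each array left out.

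The members and lists were chosen with earlier results of these data known. Named were Ppara, all member probe sets, the 2 list genes with the smallest p in each role, the 3 nearest profiles per member, and the markers with the lowest or highest signal. Lmf1, Apoc2, Angptl8, Lrp4, Lrp8, Mylip and the single cell type markers given with values were named beyond that rule, after their values were seen.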

Additional observations from a re-analysis of the deposited data

How the results depend on the processing

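Angptl4 and Lpl were higher in MCK-PPARa muscle under all alternatives run. The change of Angptl4 ranged from 2.23 (offset of 50% of the median) to 3.57 (offset of 1%). Its limma adjusted p was 0.0043 to 0.16 in the fits with all 4 arrays. It passed with the replicate block (3.17, adjusted p = 0.0043) and with the median of a gene's probe sets (3.17, adjusted p = 0.037). That median took only probe sets past the filter, so for Angptl4 it was 1417130_s_at alone. The dimmer Angptl4 probe set did not enter it. With single arrays left out it was 2.85 to 3.49. Such fits keep a lone array in a group, so only the sizes of the change are given. The change of Lpl passed with the replicate block (1.29, adjusted p = 0.020), and was 0.66 to 1.92 with single arrays left out. With the median of its probe sets it was 1.69 (adjusted p = 0.15). Among member probe sets tested over all probe sets, Lpl 1415904_at, Lpl 1431056_a_at and Angptl4 1417130_s_at passed with the block. Without the block they did not pass, with or without quantile normalization. The block was not combined with quantile normalization. Vldlr was not called under any of the alternatives. Its change was -0.35 to 0.11 with single arrays left out, and above 0 without NTG replicate 2 (0.11) and without MCK-PPARa replicate 1 (0.015).

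Of all genes, 5 passed without the block and 211 with it, 2 with quantile normalization, 1 with median centring, 3 without a variance trend, 18 with the median of a gene's probe sets, and 53 to 142 with single arrays left out. The counts with single arrays left out come from fits with a lone array in a group, which has no spread of its own. Those counts cannot be compared with the counts from all 4 arrays and do not show that more genes changed. Pathway genes called were 0 without the block and 1 of 41 with it (Gpc1), where 2.51% of all genes passed. Median centring moved the median change of all genes from 0.055 to -0.048, and that of Lpl to 1.19. The causes of these differences were not tested. Signals near the offset, as those of Angptl4 in NTG, limit how well a fold can be given.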
